A study of Mus musculus with 6 samples.

Results

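The genes described here encode proteins of the mitochondrial ribosome. They were found by symbol, as genes whose symbol is Mrpl or Mrps followed by a digit, without the pseudogenes marked -ps, among rows of the array table that carry 1 symbol. This gave 74 of the 30176 genes measured, 46 with Mrpl and 28 with Mrps symbols, each read from 1 row. Mrpl30, Mrpl33, Mrpl53 and Mrps6 share their rows with another symbol and are not described. A further row that Mrps18b shares with Gm16279 was not used. The choice used names only and no measured value.

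Mitochondria carry their own genome, and the messenger RNAs it encodes, all for subunits of the respiratory chain and the ATP synthase, are translated by a ribosome inside the organelle. The ribosomal RNAs of this ribosome are made from mitochondrial DNA, whereas its proteins are encoded in the nucleus, made in the cytosol and imported. It has a small subunit, which reads the message, and a large subunit, which forms the peptide bond, and each combines proteins with a bacterial counterpart and proteins found only in mitochondria. The preimplantation embryo inherits its mitochondria from the oocyte, and respiration rises as the blastocyst cavity forms.

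Embryos were zygotes of a B6C3F1 x CD1 cross that had been injected at the pronuclear stage and cultured, and RNA was taken 72 h after injection, given in the labels as 96 h of culture, 4 days post coitum and Theiler stage 5. All embryos, controls included, received dextran beads and mCherry-Trim21 mRNA, the message for a fluorescent version of TRIM21, a ubiquitin ligase that binds antibodies and sends what they hold to the proteasome. A first control group received nothing more, a second also received anti-GFP, an antibody with no target in these wildtype embryos, and the third group received anti-TEAD4, against a transcription factor needed for the trophectoderm, the outer layer of the blastocyst. Each group comprised 2 pools (replicates a and b) of 10 embryos, each hybridized to 1 Affymetrix Mouse Transcriptome Array. The labels describe cavities as normal in both control groups and as absent, or small and aberrant, with anti-TEAD4. The sample titles call the control pools blastocysts and both anti-TEAD4 pools morulae/blastocysts. Values are log2 intensities, in which a difference of 1 is a doubling, and levels of different genes are not compared because each has its own probes. A pool is bulk RNA, so that fewer cells of a type and less RNA per cell cannot be told apart.

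In the mRNA for the target, Tead4, the anti-TEAD4 pools were at 8.44 and 8.95 and the 4 control pools between 9.16 and 9.40, although the antibody acts on the protein. Of 11 trophectoderm markers, 9 were below all 4 control arrays in both anti-TEAD4 pools, against 7.68% of all genes. The summed linear intensity of the 11 was 41480 and 76480 there against 327100 to 355500 in the control arrays. Elf5, the 1 trophectoderm marker at the level of silent genes, was there on all 6 arrays. The sum over 8 inner cell mass and pluripotency markers was 74640 and 122800 with anti-TEAD4 and 87610 to 109400 in the controls. Of 6 cumulus cell markers, 5 were at the level of silent genes on all 6 arrays, as were 3 of 5 primitive endoderm markers. The array of anti-TEAD4 replicate a stood apart: its median over all genes was 4.83 against 4.62 to 4.68 on the other 5 arrays, and the median of 1382 olfactory and vomeronasal receptor genes, which embryos are not known to use, was 4.01 there and 3.68 to 3.82 elsewhere. All 74 genes lay above the 95th percentile of these silent genes on every array. Trim21, whose message was injected in all groups, spanned 3.04 on the log2 scale over the 4 control arrays. Both anti-TEAD4 pools exceeded the highest control, replicate a by 1.51 and replicate b by 0.87. Whether this bears on the ribosomal protein genes was not tested.

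The start regions of 5 of these genes are shown first, since the rest of the text returns to them: Mrps11, Mrps27 and Mrpl49, which differed most between the anti-TEAD4 pools among genes with a sequence here, and Mrpl24 and Mrps25, which were low in both. Each window is 300 bases, 250 before and 50 after the transcription start, 5′ to 3′ on the strand of the gene, from RefSeq on build GRCm38.p6. The positions are chr7:78782881-78783180, plus strand for Mrps11, chr13:99344536-99344835, plus strand for Mrps27, chr19:6057706-6058005, minus strand for Mrpl49, chr3:87919294-87919593, plus strand for Mrpl24 and chr6:92183974-92184273, minus strand for Mrps25. Capitals mark a match, on either strand, to the letters CCGGAAG of ETS factors such as GABP, CGCANGCG of NRF1, AAGATGGC of YY1 or GGAATG of TEAD factors.
Mrps11: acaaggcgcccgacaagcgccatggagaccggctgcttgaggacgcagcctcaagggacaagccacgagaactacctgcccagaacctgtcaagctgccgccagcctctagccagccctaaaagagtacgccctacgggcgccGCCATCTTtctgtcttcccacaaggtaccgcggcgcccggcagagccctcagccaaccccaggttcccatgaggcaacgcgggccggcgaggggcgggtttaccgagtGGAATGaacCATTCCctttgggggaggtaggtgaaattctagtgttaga
Mrps27: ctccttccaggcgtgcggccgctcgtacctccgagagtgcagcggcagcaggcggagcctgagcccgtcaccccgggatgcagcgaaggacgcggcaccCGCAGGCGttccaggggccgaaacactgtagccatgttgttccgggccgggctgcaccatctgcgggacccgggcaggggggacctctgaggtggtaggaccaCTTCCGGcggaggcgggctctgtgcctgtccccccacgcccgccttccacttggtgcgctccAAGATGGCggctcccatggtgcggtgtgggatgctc
Mrpl49: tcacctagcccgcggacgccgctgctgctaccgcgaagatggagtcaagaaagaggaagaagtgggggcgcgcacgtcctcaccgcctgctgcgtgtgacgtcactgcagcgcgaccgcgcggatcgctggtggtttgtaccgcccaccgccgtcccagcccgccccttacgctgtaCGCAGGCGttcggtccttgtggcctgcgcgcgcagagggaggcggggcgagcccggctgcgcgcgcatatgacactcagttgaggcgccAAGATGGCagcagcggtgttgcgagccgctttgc
Mrpl24: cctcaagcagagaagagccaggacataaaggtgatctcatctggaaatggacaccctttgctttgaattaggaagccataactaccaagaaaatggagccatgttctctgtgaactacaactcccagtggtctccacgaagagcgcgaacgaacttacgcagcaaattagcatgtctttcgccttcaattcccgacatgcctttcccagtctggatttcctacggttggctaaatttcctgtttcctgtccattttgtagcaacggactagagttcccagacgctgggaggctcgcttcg
Mrps25: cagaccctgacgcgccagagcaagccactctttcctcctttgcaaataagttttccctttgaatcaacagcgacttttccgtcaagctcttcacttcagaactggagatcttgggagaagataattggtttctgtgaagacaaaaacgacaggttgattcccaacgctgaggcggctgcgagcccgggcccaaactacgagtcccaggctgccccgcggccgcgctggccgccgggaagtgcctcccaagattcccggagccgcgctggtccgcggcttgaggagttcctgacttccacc
GABP, NRF1 and YY1 are transcription factors known for nuclear genes of mitochondria. The window of Mrps27 held the letters of all 3, the only gene of the family to do so. Mrpl49 held those of NRF1 and YY1, and Mrpl24 and Mrps25 held none of the marked letters. Other genes below every control in both anti-TEAD4 pools differed in this. Mrpl17 held ETS and NRF1 letters, Mrpl21 ETS letters and Mrpl44 NRF1 and TEAD letters, and Mrps2, Mrps15 and Mrps36 held none.

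A window was matched by symbol for 65 of the 74 genes, with 71 windows in all, and none for Mrpl4, Mrpl13, Mrpl15, Mrpl19, Mrpl38, Mrpl54, Mrps28, Mrps34 and Mrps35. The ETS letters were in 24 of the 71 windows (33.8%), against 8.86% of all 32851 windows of the same length. Among windows of protein-coding genes as bright as the dimmest of the 74 they were in 21.4%. The NRF1 letters were in 19 (26.8%, against 8.21% and 19.3%) and the YY1 letters in 12 (16.9%, against 2.75% and 5.27%). Over all protein-coding windows the ETS, NRF1 and YY1 shares were 11.6%, 11.1% and 3.05%. For cytosolic ribosomal proteins they were 37.2%, 23.3% and 4.65%, and for nuclear-encoded respiratory chain subunits 25.4%, 38.8% and 13.4%. The ETS and NRF1 shares were thus each exceeded in 1 of these related families. Of the 12 YY1 matches, 8 lay at or after the start. The TEAD letters were in 8 windows (11.3%, against 14.7% and 11.4%), among them those of Mrps11 and Mrpl46. Also searched were GGGCGG of SP factors, in 53.5% of the windows against 35.7% of all and 63.8% of bright ones, and the E-box CACGTG, in 9.86% against 7.15% and 10.5%. The ETS and YY1 letters can share bases, but no match of one overlapped a match of the other in these windows. A match is a description of letters and no evidence of binding. In anti-TEAD4 replicate a the median difference from the control mean was −0.40 over genes with the ETS letters and −0.61 over those without. It was −0.52 and −0.53 for NRF1, −0.86 and −0.51 for YY1, and −0.50 and −0.55 for TEAD. In replicate b these medians lay between 0.20 and 0.29, and none of these differences was tested.

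Mrps11 and Mrpl46, which encode a small and a large subunit protein, lie head to head on chromosome 7 with 42 bases between their starts, so that the window printed for Mrps11 holds both starts. The TEAD letters occur in it once on each strand. In all, 19 of the 65 genes with a window had the start of a protein-coding gene on the other strand within 300 bases, among them Mrps12 with Sars2, which encodes the mitochondrial seryl-tRNA synthetase, and Mrpl43 with Twnk, the helicase that replicates mitochondrial DNA.

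The family as a whole showed no single direction with anti-TEAD4, because its 2 pools lay on opposite sides of the controls. In replicate a, 70 of the 74 genes were below their mean over the 4 control arrays, with a median difference of −0.53 on the log2 scale (interquartile range −0.78 to −0.31). In replicate b, 59 of the 74 were above it, with a median difference of 0.26 (interquartile range 0.05 to 0.42). The 4 control arrays had medians of −0.04, −0.04, −0.03 and 0.09. On the linear scale the family summed to 264200 and 267000 in the mCherry-Trim21 mRNA pools, 277100 and 303100 in the anti-GFP pools, and 186400 and 330800 in the anti-TEAD4 pools, so that the anti-TEAD4 pools held both the lowest and the highest sum. A linear sum is weighted towards rows of high intensity. Among these are Mrpl22, Mrps18c and Mrpl42, at 15.45, 15.09 and 15.07 on the log2 scale in mCherry-Trim21 mRNA replicate a.

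**Figure D1:**
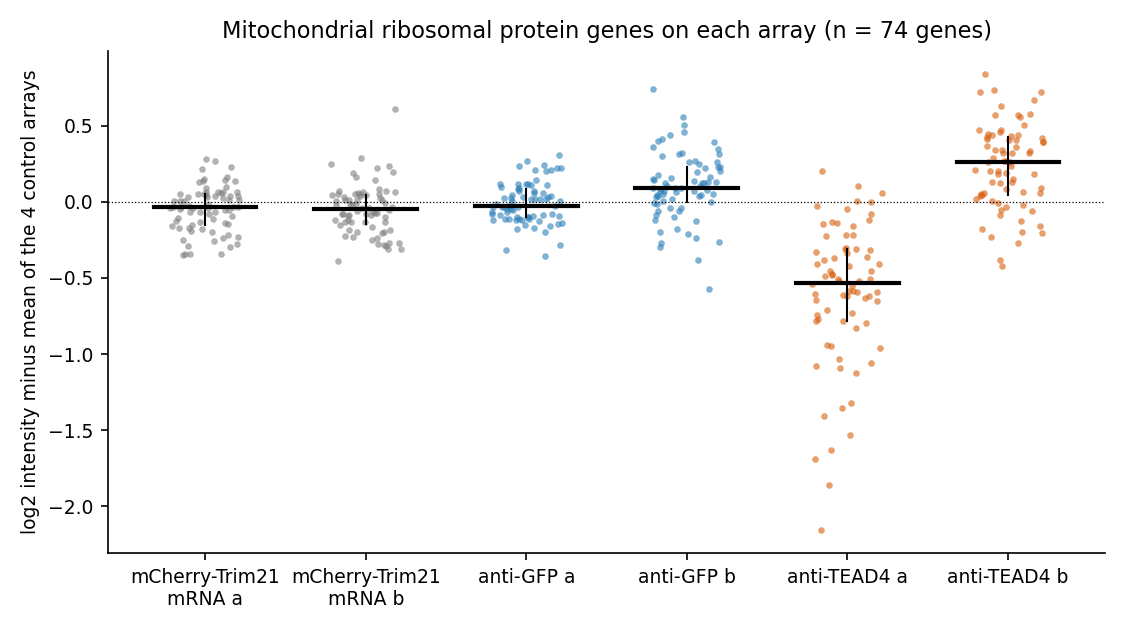
Log2 intensity of each of the 74 genes minus its mean over the 4 control arrays, on each of the 6 arrays. Points are genes, thick bars the median and thin bars the interquartile range, and the medians of the 2 anti-TEAD4 arrays are −0.53 and 0.26.

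How often each pool lay outside the controls is given beside the same share over all genes measured. Replicate a was below all 4 control arrays for 62 of the 74 genes, against 28.7% of all genes and 57.4% of the 10424 genes at least as bright as the dimmest of the 74, and above all of them for 1, Mrpl38, against 40.6% of all genes. Replicate b was above all 4 control arrays for 39 of the 74, against 26.3% of all genes and 32.1% of the bright ones, and below them for 8, against 18.5%. Both at once, replicate a below and replicate b above every control, held for 32 of the 74 genes (43.2%), against 8.03% of all genes and 17.7% of the bright ones. The reverse held for none, against 6.18% of all genes and only 2.66% of the bright ones. Replicate a was under replicate b for 71 of the 74, all but Mrpl32, Mrpl35 and Mrps36, against 44.9% of all genes and 73.6% of the bright ones. Genes that share 2 arrays are not independent, so these shares are descriptions without a test.
The size of the gap points to the same pair of arrays. The median gap between the 2 pools of a group was 0.19 over the 74 genes with mCherry-Trim21 mRNA, 0.18 with anti-GFP and 0.74 with anti-TEAD4. Over all genes these gaps were 0.15, 0.18 and 0.32, and over the bright ones 0.19, 0.25 and 0.53. The size of the shift depended on how the arrays were scaled, and its signs did not in the scalings tried. With the arrays centred on the bright genes, the family medians were −0.19 in replicate a (52 of 74 below) and 0.20 in replicate b (52 of 74 above). After quantile normalization they were −0.19 and 0.17, with 51 of 74 on each side, and after median centring −0.72 and 0.23. Median centring itself moved the median of all genes in replicate a from 0.08 to −0.11.

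**Figure D2:**
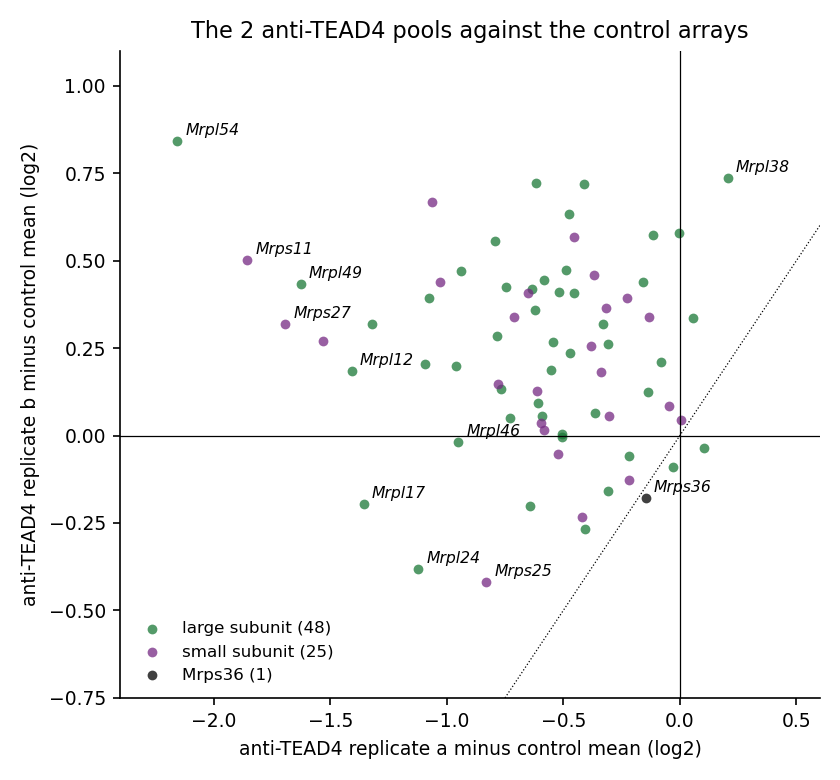
Difference of each gene from its control mean on the log2 scale, in anti-TEAD4 replicate a (horizontal) and replicate b (vertical), coloured by subunit, with equal values on the dotted line. Most points lie in the upper left, low in replicate a and high in replicate b, and 3 lie on or below the dotted line.

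The pattern ran through both subunits. Of 48 genes for large subunit proteins, 45 were below the control mean in replicate a (median −0.55) and 38 above it in replicate b (median 0.26). Of 25 for small subunit proteins, 24 were below in replicate a (median −0.52) and 21 above in replicate b (median 0.26). The 43 genes for proteins with a bacterial counterpart and the 29 for proteins found only in mitochondria had medians on the same sides. In replicate a the medians were −0.57 and −0.51 for bacterial-type and mitochondria-specific proteins of the large subunit and −0.58 and −0.45 for those of the small subunit. In replicate b they were 0.25, 0.32, 0.27 and 0.17 in the same order.

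The widest gap between the anti-TEAD4 pools was that of Mrpl54, a mitochondria-specific large subunit protein. Its log2 intensities were 8.89 and 9.26 in the mCherry-Trim21 mRNA pools, 9.26 and 9.34 in the anti-GFP pools, and 7.03 and 10.03 in the anti-TEAD4 pools (the values of other genes are given in the same order of groups). The control arrays spanned 0.45 and the anti-TEAD4 pair 3, with one pool under and one over every control. Its log2 fold change against both control groups was −0.66 with a standard error of 0.80 (adjusted p = 0.784 from limma).
Mrps11, a protein of the platform of the small subunit, was at 7.76 and 7.51, then 7.73 and 7.79, and with anti-TEAD4 at 5.84 and 8.20. Its partner across the shared start region, Mrpl46, of the central protuberance of the large subunit, was at 12.52 and 12.32, 12.31 and 13.37, and 11.68 and 12.61. Both were lowest in anti-TEAD4 replicate a, but for Mrpl46 the highest array was anti-GFP replicate b. The log2 fold changes were −0.68 (standard error 0.63) for Mrps11 and −0.49 (standard error 0.39) for Mrpl46.
Mrpl49, a mitochondria-specific large subunit protein, was within 0.07 across the control arrays, at 11.25, 11.22, 11.22 and 11.18, and at 9.59 and 11.65 with anti-TEAD4. Mrps27, a small subunit protein with pentatricopeptide repeats, was at 9.22 and 10.17, 9.87 and 8.99, and 7.87 and 9.88. The control arrays of Mrps27 themselves spanned 1.18, and replicate b lay inside them, so only replicate a stood apart. The log2 fold changes were −0.60 (standard error 0.55) and −0.69 (standard error 0.63), neither past the test.

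Against both control groups together no gene of the family passed an adjusted p under 0.05 from limma, and neither did any gene on the array (0% of 30176). With limma's unadjusted p under 0.05, 3 of 74 were lower and none higher, against 4.45% of all genes lower and 4.06% higher. The median log2 fold change of the family was −0.16, with 57 of 74 below 0, beside 0.06 over all genes and −0.12 over the bright ones. Against mCherry-Trim21 mRNA alone it was −0.12 and against anti-GFP −0.22, where again no member and 0% of all genes passed. These comparisons share the anti-TEAD4 arrays and are not independent of each other. The 95% confidence interval of a fold change was 1.27 wide at the median over the 74 genes, from 0.62 to 3.98. The 2 pools per group limit the precision, and the p values measure the spread between these pools only, for which the labels do not say whether they were injected or processed together.

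In 8 of the 74 genes neither anti-TEAD4 array reached the lowest of the 4 control arrays, against 7.68% of all genes and 14.5% of the bright ones, and in 1 both exceeded the highest, against 11.4% and 6.37%. These are 10.8% and 1.35% of the family, in both directions fewer than among the bright genes. The 8 were Mrpl17, Mrpl21, Mrpl24, Mrpl44, Mrps2, Mrps15, Mrps25 and Mrps36.
Mrps25, a mitochondria-specific protein of the small subunit, measured 6.05 and 5.89, 6.06 and 6.36, and 5.26 and 5.67. The group means were 5.97 ± 0.11, 6.21 ± 0.21 and 5.46 ± 0.29 (SD, n = 2 pools each). Its log2 fold change against both control groups was −0.63 (standard error 0.18, unadjusted p = 0.0155 and adjusted p = 0.494 from limma), the lowest p of the family.
Mrpl24, a large subunit protein with a bacterial counterpart near the exit of the peptide tunnel, was at 12.57 and 12.79, 12.64 and 12.97, and 11.62 and 12.36. Its log2 fold change was −0.75 (standard error 0.25), a level 40.6% lower, with adjusted p = 0.524 from limma. It kept this direction in both pools, although replicate a lay 0.74 under replicate b.
Mrpl17, also of the large subunit and bacterial in origin, had the lowest fold change of the family, −0.78 (standard error 0.33, adjusted p = 0.587 from limma), at 7.22, 7.29, 7.26 and 7.42 in the control arrays and 5.94 and 7.10 with anti-TEAD4. The value of replicate b was 0.12 under the lowest control array, so that most of the difference came from replicate a. Mrpl21 was at 13.55, 13.52, 13.61 and 13.73 in the control arrays and 12.96 and 13.40 with anti-TEAD4, with a fold change of −0.42 on the log2 scale (standard error 0.17).
The others differed less. Mrpl44, a large subunit protein with a ribonuclease III-like fold, was at 9.04, 9.26, 9.54 and 9.35 in the control arrays and 8.89 and 9.03 with anti-TEAD4, lower by a log2 fold change of −0.34 (standard error 0.14). Mrps2 was at 7.44, 7.38, 7.32 and 7.47, and 6.98 and 7.17, a change of −0.33 (standard error 0.13). Mrps15, which binds the small subunit ribosomal RNA, was at 8.82, 8.72, 8.67 and 8.82, and 8.54 and 8.63, a change of −0.17 (standard error 0.13). For Mrpl44 and Mrps15 the nearer anti-TEAD4 array was within 0.04 of the lowest control.
Mrpl38, a mitochondria-specific protein of the large subunit, was the 1 gene higher in both pools. It was at 8.39 and 8.13, 8.45 and 8.37, and 8.54 and 9.07 with anti-TEAD4, so that replicate a exceeded the highest control by 0.09. Its log2 fold change was 0.47 (standard error 0.19, 95% confidence interval −0.01 to 0.95, adjusted p = 0.587 from limma).

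**Figure D3:**
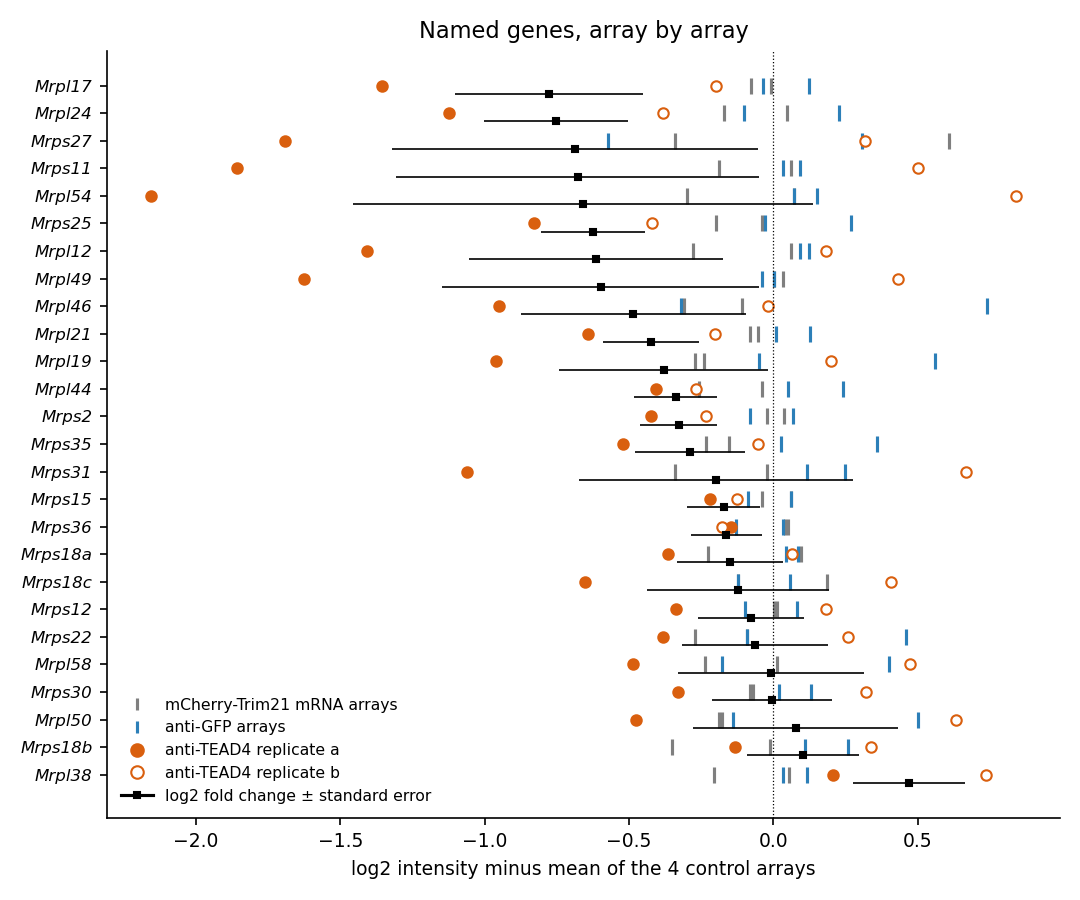
Log2 intensity minus control mean for the 26 genes named by rule, with 1 mark per array and, below it, the log2 fold change of anti-TEAD4 against both control groups with its standard error. Filled circles (replicate a) lie left of open circles (replicate b) for every gene but Mrps36.

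Some members have roles outside the common one, and none of them passed the test. Mrps36 is now known as a component of the 2-oxoglutarate dehydrogenase complex of the citric acid cycle and not of the ribosome. It was at 6.73 and 6.72, 6.55 and 6.71, and 6.53 and 6.50 with anti-TEAD4, and these 2 pools differed by 0.03 where the family median was 0.74. Such a small gap was not particular to Mrps36, since it was 0.04 for Mrps9, 0.06 for Mrpl35 and 0.09 for Mrps15. The log2 fold change of Mrps36 was −0.16 (standard error 0.12). The pseudogenes Mrps36-ps1 and Mrps36-ps2, measured by rows of their own, were at 12.69 and 12.88 against 13.27 to 13.46, and at 7.59 and 8.53 against 8.54 to 8.62. Whether signal is shared between such copies was not tested, nor was it for Mrpl23 and Mrpl48, which also have measured pseudogenes.
Mrpl12, which forms part of the stalk of the large subunit and also binds the mitochondrial RNA polymerase, was at 7.44 and 7.78, 7.81 and 7.84, and 6.31 and 7.90. Mrpl58, a peptidyl-tRNA hydrolase that releases stalled chains, was at 9.89 and 9.64, 9.70 and 10.28, and 9.39 and 10.35. Both were lowest in replicate a and highest in replicate b of anti-TEAD4, with log2 fold changes of −0.61 (standard error 0.44) and −0.01 (standard error 0.32).
Mrps12, of the decoding site of the small subunit, was at 11.35 and 11.36, 11.25 and 11.43, and 11.01 and 11.53. Its head-to-head neighbour Sars2 was at 7.85 and 8.02, 7.94 and 7.55, and 6.48 and 8.49. Both genes had their lowest value in replicate a and their highest in replicate b, with gaps of 0.52 for Mrps12 and 2.01 for Sars2.
The S18 proteins have 3 versions in mammals, of which Mrps18a sits in the large subunit and Mrps18b and Mrps18c in the small one. Mrps18a was at 10.08 and 9.76, 10.07 and 10.03, and 9.62 and 10.05. Mrps18b was at 10.18 and 10.52, 10.64 and 10.79, and 10.40 and 10.87. Mrps18c was at 15.09 and 15.40, 15.27 and 15.09, and 14.56 and 15.62. Replicate a was below every control for Mrps18a and Mrps18c and inside the controls for Mrps18b, and the log2 fold changes were −0.15, 0.10 and −0.12. Mrps30, which despite its name is a large subunit protein, was at 7.28 and 7.27, 7.37 and 7.48, and 7.02 and 7.67, a log2 fold change of −0.01 (standard error 0.21).

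Between the 2 control groups, which tests whether an antibody without a target moved these genes, no member and 0% of all genes passed an adjusted p under 0.05 from limma. At an unadjusted p under 0.05 there were 0 of 74, against 1.09% of all genes. The median log2 fold change was 0.10 over the family, with 47 of 74 above 0, and 0.02 over all genes. The largest differences were those of Mrpl19 (0.51, standard error 0.42), Mrpl46 (0.42, standard error 0.45) and Mrps35 (0.39, standard error 0.22), followed by Mrpl50, Mrps18b, Mrps22 and Mrps31, each at 0.36.
Mrpl19, a large subunit protein with a bacterial counterpart, measured 11.56 and 11.53, 11.75 and 12.36, and 10.84 and 12. Mrpl50 was at 12.35 and 12.34, 12.39 and 13.03, and 12.05 and 13.16. Mrps22 was at 11.93 and 11.75, 11.93 and 12.48, and 11.64 and 12.28. In each of these 3, anti-GFP replicate b was over anti-GFP replicate a by 0.55 to 0.64, more than the difference between the control groups.
Mrps31 was at 11.16 and 11.48, 11.62 and 11.75, and 10.44 and 12.17, and Mrps35 at 6.54 and 6.62, 6.80 and 7.13, and 6.25 and 6.72. Here both anti-GFP pools were over both mCherry-Trim21 mRNA pools. Neither gene passed the test.

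The other genes that mitochondrial translation needs were compared in the same 2 pools. Of 4 further proteins of the ribosome with other symbols, Dap3, a GTP-binding protein of the small subunit, was at 9.52 and 10.89 with anti-TEAD4 against 10.84 to 11.11 in the controls, and Chchd1 at 11.06 and 12.90 against 12.35 to 13.06. All 4 were below every control array in replicate a, against 28.7% of all genes and 57.4% of the bright ones. Their median was −0.97 there and 0.04 in replicate b.
Of 26 assembly factors, which fold and modify the ribosomal RNA and dock the proteins, none passed the adjusted test. At an unadjusted limma p under 0.05, 3 were higher and 3 lower, against 4.06% and 4.45% of all genes. Among them the GTPase Noa1 was at 8.25 and 8.37 with anti-TEAD4 against 7.44 to 7.87 in the controls, which is 0.69 on the log2 scale (standard error 0.14, adjusted p = 0.348 from limma). The small subunit chaperone Eral1 was at 8.61 and 8.38 against 7.26 to 7.94, a change of 0.89 (standard error 0.22, adjusted p = 0.441 from limma). Rpusd3, a pseudouridine synthase, was at 5.25 and 5.95 against 6.27 to 6.65, and Mpv17l2 at 9.83 and 10.70 against 10.83 to 11.25. In these 4 genes both anti-TEAD4 pools lay on one side of the controls. Over the whole list both pools were above all controls for 6 genes (23.1%), against 11.4% of all genes and 6.37% of the bright ones. They were below all controls for 3 (11.5%), against 7.68% and 14.5%. The medians of the list were −0.46 in replicate a and 0.21 in replicate b.
Of 15 translation factors none had an unadjusted p under 0.05. Tufm, the elongation factor that delivers aminoacyl-tRNA, was at 12.35 and 13.40 against 13.48 to 13.61, which is −0.66 on the log2 scale (standard error 0.30). The list had medians of −0.38 in replicate a and 0.04 in replicate b. The 19 genes of mitochondrial tRNA charging had −0.67 and 0.06. Of them 16 (84.2%) were below every control in replicate a, against 28.7% of all genes and 57.4% of the bright ones. Above every control in replicate b were 5 (26.3%), against 26.3% and 32.1%.
The 75 nuclear-encoded subunits of the respiratory chain, most of which are assembled with products of the mitochondrial ribosome, had a median of −0.56 in replicate a, as low as that of the ribosomal proteins, but of 0.05 in replicate b. Of them 68 (90.7%) were below every control in replicate a, against 28.7% of all genes and 57.4% of the bright ones. Above every control in replicate b were 19 (25.3%), against 26.3% and 32.1%. Both held for 17 of 75 and for 32 of the 74 ribosomal protein genes, against 8.03% of all genes and 17.7% of the bright ones. The cytosolic ribosomal proteins were listed by Rpl and Rps symbols, which gave 43 genes, among them Rpl3l, Rpl10l and Rpl7l1, and not a full set. These 43 genes had medians of −0.18 and 0.15, with both conditions met in 21. This is 48.8% of them, beside 43.2% of the mitochondrial ribosomal protein genes and 22.7% of the respiratory chain subunits. The difference between these families was not tested.
The 17 genes of mitochondrial import and matrix had medians of −0.22 and 0.11, and the 10 of mitochondrial DNA replication and transcription −0.12 and 0.02. The mitochondrial small ribosomal RNA, mt-Rnr1, the 1 gene of the organelle's genome measured here of 15 listed, was at 18.64 and 18.72, 18.76 and 17.64, and 18.81 and 18.73 with anti-TEAD4. The anti-TEAD4 pools differed by 0.08, and the lowest array was anti-GFP replicate b.

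**Figure D4:**
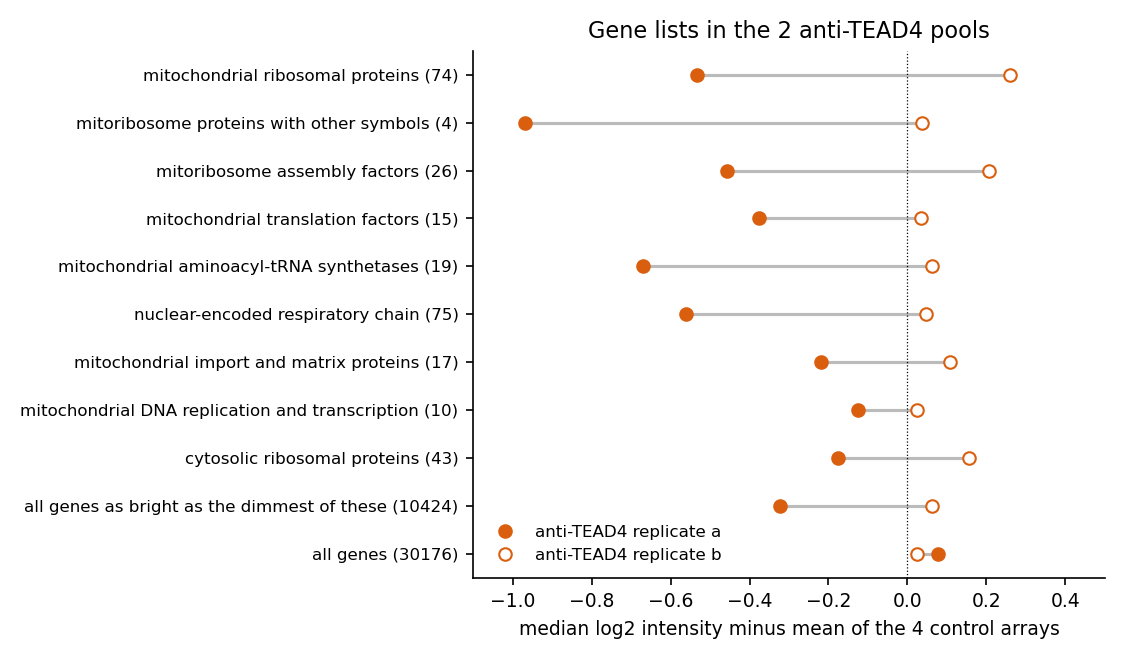
Median difference from the control mean on the log2 scale in anti-TEAD4 replicate a (filled) and replicate b (open) for each list of genes, with the number of genes in brackets. The ribosomal protein genes lie at −0.53 and 0.26, and all genes at 0.08 and 0.03.

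Of 8 regulators of mitochondrial biogenesis, 1 (12.5%) had both anti-TEAD4 arrays below all controls, against 7.68% of all genes and 14.5% of the bright ones. Ppargc1b, which encodes the coactivator PGC-1 beta, measured 8.59 and 8.61, 8.36 and 8.35, and 7.55 and 7.11. Its log2 fold change was −1.15 (standard error 0.16, unadjusted p = 5.95e-04 and adjusted p = 0.222 from limma), and unlike the ribosomal protein genes it was lower in replicate b than in replicate a. Of the factors whose letters were searched, Nrf1 was at 6.69 and 7.72 against 7.49 to 7.77, Gabpa at 10.11 and 9.91 against 9.77 to 10.09, and Yy1 at 10.49 and 10.66 against 10.54 to 10.79. Nrf1 was thus low in replicate a and within the controls in replicate b, Gabpa exceeded the highest control by 0.02 in replicate a, and Yy1 lay 0.05 below the lowest control in replicate a.
The 11 trophectoderm markers were low in both pools and lower in replicate a, with medians of −2.25 in replicate a and −1.53 in replicate b, and 7 of 11 were lower in replicate a than in replicate b. The summed linear intensity of the ribosomal protein genes was 186400 and 330800 in these pools, beside 41480 and 76480 for the markers. The pluripotency markers had −0.23 and 0.35. The part that cell composition or the levels of the array of replicate a have in the values of the ribosomal protein genes was not tested.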

How the data were processed

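RNA of 6 pools of 10 embryos was labelled and hybridized to 6 arrays. The authors ran robust multiarray averaging, which covers background, normalization and the summary of probes, in the Affymetrix Expression Console, whose version and annotation build are not given in the sources used here, and deposited log2 intensities with 2 decimals. These values were used as deposited. Of 65956 rows, 1 holds a number on 1 array that no log2 intensity can reach and was dropped, for which the column that holds it is recorded as another unit. Rows with 1 symbol numbered 30637, with several 2176 and with none here 33142. A gene was read from its brightest row with 1 symbol, and Gata3 from a row it shares with 9230102O04Rik. Linear intensity is 2 to the power of the log2 value.

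The 3 group means were fitted to all 6 arrays in limma, with 3 residual and 2.52 prior degrees of freedom, for 4 comparisons, with Benjamini-Hochberg adjustment over 30176 genes and a threshold of 0.05. The methods of the study name an analysis of variance and its text a t-test, which were run as alternatives. The other alternatives were leaving out each array, a replicate block, a fit without the third group, quantile normalization, moderation with a trend on intensity, all rows in place of 1 per gene, their mean, median centring, and no dim genes. Genes named one by one are up to 8 in each direction with both anti-TEAD4 arrays beyond all controls, those with the largest differences between the control groups (4, and 3 tied with the last) and between the anti-TEAD4 pools (4), 8 chosen for their role, and up to 4 of each other list. The genes and lists were chosen with earlier results of these data known. The steps were tested on simulated data. The versions were R 4.3.3, limma 3.58.1 and Python 3.11.15 (pandas 2.3.3, numpy 2.4.6, matplotlib 3.10.9).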

Additional observations from a re-analysis of the deposited data

How the results depend on the processing

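The 2 pools per group carry every comparison, and those of anti-TEAD4 lie on opposite sides of the controls, so that leaving out either of them decides most values. Without anti-TEAD4 replicate b the other pool stands alone and is assumed to vary like the remaining groups. Calls over the family then numbered 20, all lower, against both control groups (0 to 20 over the arrays left out), 11 against mCherry-Trim21 mRNA (0 to 11) and 13 against anti-GFP (0 to 13), where 4026 of all genes were called against both groups. Without anti-TEAD4 replicate a no gene of the family was called, and 17 of 74 had an unadjusted limma p under 0.05 beside 9.57% of all genes. The median log2 fold change ran from −0.53 to 0.26 against both control groups, from −0.48 to 0.27 against mCherry-Trim21 mRNA and from −0.60 to 0.23 against anti-GFP, positive without replicate a and negative without replicate b. Genes with the anti-TEAD4 arrays below all controls numbered 8 to 62 and above all controls 1 to 39. The 62 is the count for replicate a alone, against 28.7% of all genes and 57.4% of the bright ones. The 39 is that for replicate b alone, against 26.3% and 32.1%. With all arrays the counts were 8 and 1, against 7.68% and 11.4% of all genes. Of the 26 named genes, 23 were negative against both control groups with all arrays, and 13 of these became positive without anti-TEAD4 replicate a. With each array left out in turn Mrpl12 ran from −1.41 to 0.18, Mrpl19 from −0.96 to 0.20, Mrpl49 from −1.63 to 0.43, Mrpl54 from −2.16 to 0.84, Mrpl58 from −0.49 to 0.47, Mrps11 from −1.86 to 0.50, Mrps12 from −0.34 to 0.18, Mrps18a from −0.365 to 0.065, Mrps18c from −0.65 to 0.41, Mrps22 from −0.38 to 0.26, Mrps27 from −1.69 to 0.32, Mrps30 from −0.33 to 0.32 and Mrps31 from −1.06 to 0.67. Of these, Mrpl58, Mrps22 and Mrps30 were also positive without anti-GFP replicate b, and Mrpl58 without mCherry-Trim21 mRNA replicate a. Of the 3 positive genes, Mrpl50 (from −0.48 to 0.63) and Mrps18b (from −0.13 to 0.34) became negative without anti-TEAD4 replicate b, and Mrpl50 without anti-GFP replicate a. In the alternatives that kept both anti-TEAD4 pools, none of the 26 named genes passed the adjusted limma test.

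Quantile normalization gave 4 genes below and 5 above all controls in both pools, and median centring 0 above. Chosen after seeing the data, centring on bright genes left 36 and quantile normalization 35 of the 62 genes with replicate a below all controls. Shares over all genes under these scalings are not given here, so these counts stand without a background. The median log2 fold changes after quantile normalization were −0.03, 0.00 and −0.06 in the order above. It made Mrpl58 (0.095), Mrps12 (0.07), Mrps22 (0.11) and Mrps30 (0.13) positive, and median centring made Mrpl50 (−0.032) and Mrps18b (−0.008) negative. With the replicate letter as a block (replicate block), 0 genes of the family were called in each comparison and the median was −0.16. Deviations of equal letters correlated at −0.51 between mCherry-Trim21 mRNA and anti-GFP, 0.21 between mCherry-Trim21 mRNA and anti-TEAD4 and −0.25 between anti-GFP and anti-TEAD4. Swapping the letters within a group reverses the signs of its correlations, so these values cannot tell whether equal letters mark shared processing. By the methods' t-test 1 gene of the family passed an unadjusted 0.01 against mCherry-Trim21 mRNA, beside 0.941% of all genes, and 0 in the other comparisons and after adjustment. An analysis of variance without moderation called none after adjustment.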
